A study of Homo sapiens with 12 samples.

Results

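TXNIP, its alpha-arrestin relatives ARRDC2, ARRDC3 and ARRDC4, and the transcription factor subunits MLX and MLXIP were followed on expression arrays of HK-2, an immortalised epithelial line from the proximal tubule of a human kidney. TXNIP was chosen by its log2 values in control cells, where it had the largest fall over time, and the other 5 genes because they are its relatives or act on its promoter. All 16 probe sets that the platform annotation pairs with exactly 1 of these 6 symbols were used, out of 54613 probe sets other than controls and 19775 named genes. Of the 16, 11 passed the filter of a log2 value above 4 on at least 3 arrays: 3 for TXNIP, 1 each for ARRDC2, ARRDC3 and ARRDC4, 3 of 6 for MLX and 2 of 4 for MLXIP. The 5 others, 3 for MLX and 2 for MLXIP, were too dim to be tested.

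The 12 arrays form 4 groups of 3: Ota cells at 72 h, Ota cells at 24 h, control cells at 72 h and control cells at 24 h. The Ota cells received what the labels call a low dose, with no concentration given and the name not spelled out, and the control cells received vehicle. All groups are the same line, grown in a medium with 5 mM glucose, insulin, epidermal growth factor, hydrocortisone, transferrin and selenite, and exposed close to confluence in 2 mL of medium per well. The labels do not mention a change of medium between 24 h and 72 h, and glucose in the medium was not among the measurements analysed here. The 3 arrays of a group are labelled biological replicates, and nothing is said of what the cultures shared. The p-values therefore take in just the spread among these 12 samples, which may be technical.

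Alpha-arrestins are adaptor proteins that link membrane proteins to NEDD4-family ubiquitin ligases. TXNIP, the best known of them, binds reduced thioredoxin and promotes the internalisation of the glucose transporter GLUT1, so that it limits glucose uptake. ARRDC4 is its closest relative and also restrains glucose uptake, whereas ARRDC3 is known for controlling the traffic of the beta-2 adrenergic receptor. MLXIP, better known as MondoA, pairs with MLX. Under glucose 6-phosphate the MondoA-MLX dimer binds carbohydrate response elements in the TXNIP and ARRDC4 promoters, which makes both genes glucose-induced. In the kidney, TXNIP is known as a gene induced by high glucose in tubular cells.

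The promoters of TXNIP and ARRDC4 are shown because these glucose-induced genes had the 2 largest falls among the 6 genes. Both are from RefSeq (assembly GRCh38.p14) and run 5′ to 3′ on the gene's own strand, from 250 bases before the annotated start to 50 after it. Capitals mark the letters searched on both strands. These were the E-box CACGTG, which reads the same on both. The E-box-like motif searched was CACGAG, seen as CTCGTG when it lies on the opposite strand. The last was CCAAT, seen as ATTGG when it lies on the opposite strand. No 2 of these matches overlap here. The TXNIP window is chr1:145996530-145996829 on the minus strand and the ARRDC4 window chr15:97960453-97960752 on the plus strand.
TXNIP: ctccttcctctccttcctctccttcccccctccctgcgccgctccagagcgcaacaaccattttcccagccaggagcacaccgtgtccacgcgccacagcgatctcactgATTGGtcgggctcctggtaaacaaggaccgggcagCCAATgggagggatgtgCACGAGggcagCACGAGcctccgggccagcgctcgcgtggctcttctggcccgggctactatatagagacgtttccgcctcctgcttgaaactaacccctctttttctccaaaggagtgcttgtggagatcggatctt
ARRDC4: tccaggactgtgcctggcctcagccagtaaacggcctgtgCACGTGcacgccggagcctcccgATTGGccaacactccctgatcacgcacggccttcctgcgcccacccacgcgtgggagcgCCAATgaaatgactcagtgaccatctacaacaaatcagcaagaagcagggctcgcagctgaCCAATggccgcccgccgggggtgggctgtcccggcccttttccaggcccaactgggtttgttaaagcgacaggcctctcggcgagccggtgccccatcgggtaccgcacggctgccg
In the TXNIP window, CACGAG stands at positions -88 to -83 and again at -77 to -72, counted from the start with -1 as the base before it, with 5 bases between. A pair of this form, which is CACGNG followed after any 5 bases by CACGNG, was found in 20 of 35116 RefSeq promoters of the same length (0.057%). CCAAT lies at -105 to -101, and its reverse complement at -140 to -136. The ARRDC4 window holds 1 CACGTG at -210 to -205, CCAAT at -128 and -67, and ATTGG at -187, these 3 positions being first bases. Of the other 4 genes, MLX has CACGTG at -50 and ATTGG at -66, ARRDC3 has CCAAT at -241, MLXIP has ATTGG at -76, and the ARRDC2 window has none of these letters. CACGTG was in 7.26% of all promoters, CACGAG in 6.78% and CCAAT in 34.6%. These are matches of letters in a window, and binding was not measured.

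Arrays of 1 group correlated at r = 0.982 to 0.993 and no 2 arrays held identical values. The 5 common epithelial markers were well above the filter, with group medians of 11.8 to 12.2, while 0 of 10 markers of mature proximal tubule passed it, LRP2, CUBN, AQP1 and SLC34A1 among them. Of the markers of other cells, 0 of 5 for endothelium and 0 of the 3 leukocyte markers with a probe set passed, and the defining markers PECAM1, CDH5 and PTPRC stayed below log2 4 on all arrays. Of the fibroblast list 3 of 5 passed (COL1A1, DCN and LUM), with COL3A1 and PDGFRB below the filter. The 3' minus 5' signal of the actin control probe sets, a sign of RNA quality, averaged 1.28 ± 0.08 in Ota cells at 72 h, 1.17 ± 0.12 in Ota cells at 24 h, 1.18 ± 0.17 in control cells at 72 h and 1.01 ± 0.21 in control cells at 24 h (log2, SD, n = 3 each).

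TXNIP was a bright gene at 24 h and lay near the bottom of the scale at 72 h, in Ota cells and in control cells alike. Its brightest probe set (201010_s_at) read 5.03, 4.13 and 4.21 on the log2 scale in Ota cells at 72 h, with 10.74, 10.34 and 10.62 in Ota cells at 24 h. The same probe set read 4.55, 4.21 and 4.47 in control cells at 72 h and 10.48, 10.15 and 10.44 in control cells at 24 h. Every 72 h array lay below every 24 h array, with a gap of more than 5 log2 units between the times and an overlap of Ota and control arrays within each time. The second probe set (201009_s_at) read 3.15, 4.18 and 3.30 in Ota cells at 72 h, with 10.58, 10.18 and 10.40 in Ota cells at 24 h, against 2.87, 2.61 and 3.10 in control cells at 72 h and 10.03, 9.77 and 9.88 in control cells at 24 h. The third (201008_s_at) averaged 4.16 ± 0.66 in Ota cells at 72 h, 10.30 ± 0.27 in Ota cells at 24 h, 3.84 ± 0.51 in control cells at 72 h and 9.81 ± 0.19 in control cells at 24 h (SD, n = 3 each). The 3 probe sets read 1 gene and are not independent: their values over the 12 arrays correlated at r = 0.985 to 0.996.

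**Figure D1:**
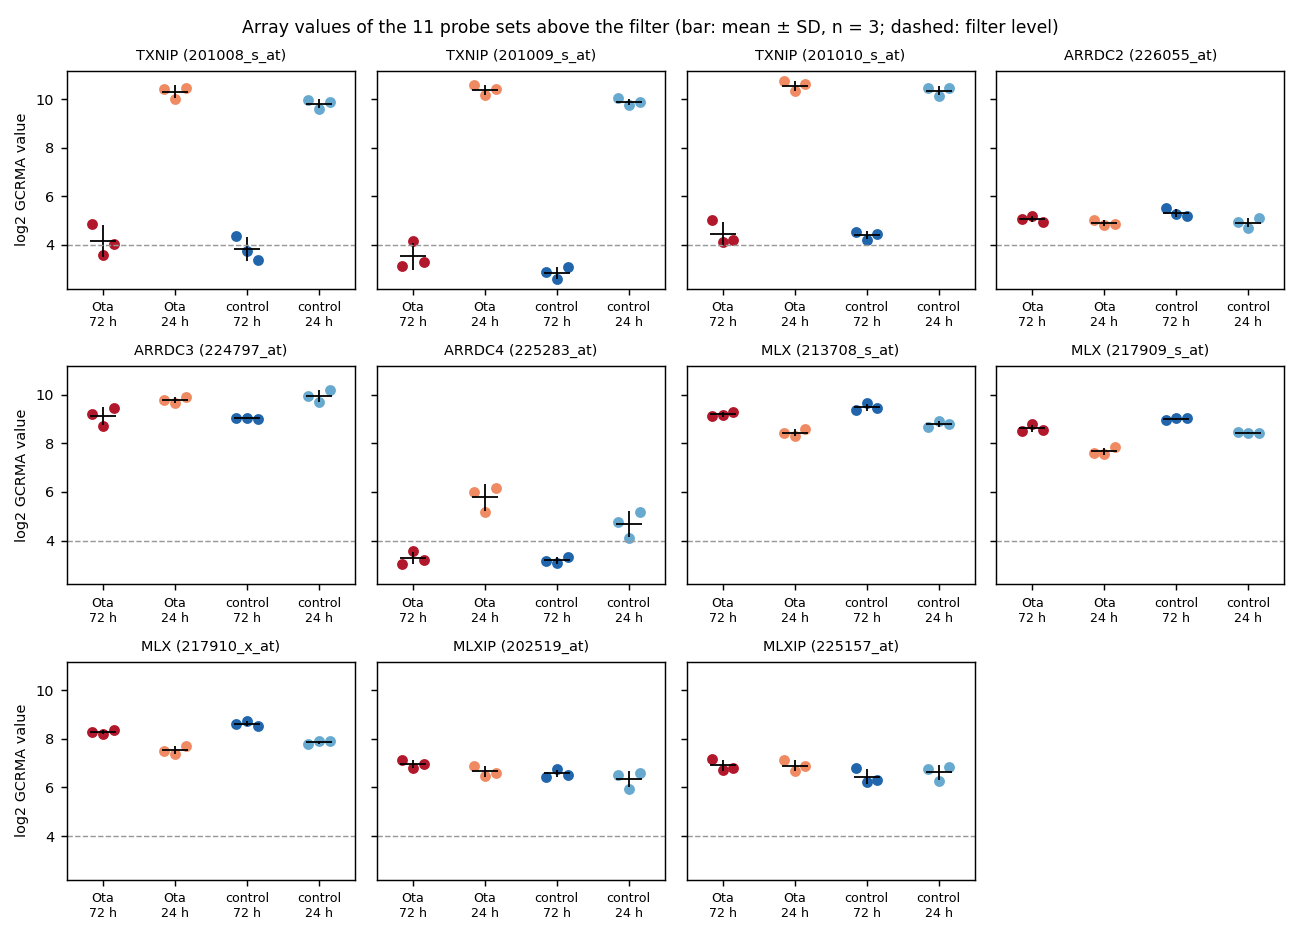
Log2 GCRMA value of each of the 11 probe sets above the filter on each of the 12 arrays, by group, with Ota cells left of control cells at each time. Points are arrays and bars are the group mean ± SD (n = 3); the dashed line marks the filter at log2 4. TXNIP lies above 9 in all 24 h arrays and at 5.03 or below in all 72 h arrays, ARRDC4 falls with it from a lower level, and the 3 MLX probe sets are higher at 72 h.

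The fall in Ota cells is a difference between arrays that had no part in choosing the gene, so it was tested. The test is not fully separate from that choice, since the fit takes its spread from all 12 arrays. Same-numbered Ota and control samples at 24 h were also correlated (r = 0.347 to 0.480 for deviations from the group means). Between 72 h and 24 h, TXNIP fell by 6.11 ± 0.22 (SE) on the log2 scale on its brightest probe set, a 68.9-fold lower level (limma adjusted p = 2.01e-07). The difference was -6.14 ± 0.32 on 201008_s_at (70.3-fold, limma adjusted p = 4.29e-06) and -6.85 ± 0.24 on 201009_s_at (115.1-fold). The probe set 201009_s_at passed the filter through the 24 h arrays alone, so it had to differ, and its fall is a description. In Ota cells, as in control cells, these were the 3 largest falls among the 22477 probe sets tested, and the next was galanin (GAL), a neuropeptide gene, at -4.24. In control cells, where the size of the fall chose the gene, the differences were -5.95, -7.03 and -5.98 (61.9-fold, 131.1-fold and 63.0-fold lower at 72 h) and are a description with no test. There the first probe sets outside the choice were GAL at -4.40 and the sodium channel gene SCN3A at -4.25.

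Of the 18 TXNIP values at 72 h, 8 were at or below the filter level of log2 4, close to the background, so the sizes of the falls are uncertain at the low end. With all values raised to at least log2 4 before the fit, a setting added after the data were seen, the falls in Ota cells came to -6.11, -6.33 and -5.99. RNA was taken from whole cultures, so fewer cells of a kind and less RNA per cell cannot be told apart. The fibroblast markers also differed over time: the summed level of the 5 spanned 11.2 to 11.7 in Ota cells at 72 h and 11.8 to 12.3 in Ota cells at 24 h, against 10.1 to 10.7 in control cells at 72 h and 11.7 to 12.3 in control cells at 24 h (log2 of the sum). Their part in the fall of TXNIP was not tested.

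Against control cells, TXNIP showed no called change at either time. At 24 h the differences were 0.21 ± 0.22 (95% interval -0.28 to 0.69, limma adjusted p = 0.536) on the brightest probe set, 0.49 ± 0.24 (-0.03 to 1.02, adjusted p = 0.149) on 201009_s_at and 0.49 ± 0.32 (-0.22 to 1.19, adjusted p = 0.292) on 201008_s_at. On the last 2, all Ota arrays lay above all control arrays, as the arrays of the 2 groups lay apart for 42.3% of all probe sets at 24 h. At 72 h the differences were 0.05 ± 0.22 (-0.44 to 0.54, limma adjusted p = 0.895), 0.68 ± 0.24 (0.15 to 1.21, adjusted p = 0.0548) and 0.33 ± 0.32 (-0.38 to 1.03, adjusted p = 0.491) in the same order. Of the 6 values behind the 0.68, 5 were below the filter level and the sixth was 4.18, in Ota 72 h replicate 2, so that the difference was 0.06 with values raised to log2 4. The probe set 201009_s_at lay close to the threshold. At 24 h its difference was called with values raised to log2 4 (adjusted p = 0.0069), with the 2 groups fitted alone (adjusted p = 0.048) and without Ota 72 h replicate 2 (adjusted p = 0.0299). At 72 h it was called with arrays shifted to a common median (adjusted p = 0.0498), with quantile normalization repeated (adjusted p = 0.0413), with a stricter filter (adjusted p = 0.0442), with an intensity trend (adjusted p = 0.0499) and without Ota 72 h replicate 1 (0.88, adjusted p = 0.031). These comparisons with control cells share their control arrays with the fall that chose the gene.

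ARRDC4, the relative of TXNIP with the same known glucose response, followed it at a lower level. Its probe set read 3.05, 3.57 and 3.22 in Ota cells at 72 h, with 5.98, 5.16 and 6.18 in Ota cells at 24 h, against 3.17, 3.06 and 3.34 in control cells at 72 h and 4.76, 4.11 and 5.16 in control cells at 24 h. It was above log2 4 on the 6 arrays at 24 h alone, so it entered the test through the 24 h groups and could pass the filter just by being higher there. All its 72 h values are below the filter level, which leaves the size of its fall in Ota cells uncertain. The difference was -1.77 with values raised to log2 4 and -2.50 ± 0.29 on the values as deposited. Since the filter built in a fall, both are given as a description. In control cells the difference was -1.49, or -0.68 with values raised to log2 4, as a description.

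At 24 h ARRDC4 was higher in Ota cells, with a difference of 1.10 ± 0.29 (2.14-fold, limma adjusted p = 0.0147). The groups met at their edges: the lowest Ota array and the highest control array both read 5.16. In each same-numbered pair the Ota array read higher than the control array. The call was lost without Ota 24 h replicate 1 (0.99, adjusted p = 0.0536), without Ota 24 h replicate 3 (0.90, adjusted p = 0.0549) and, at 0.82, when control 24 h replicate 2 was left out (adjusted p = 0.0542). At 72 h the difference was 0.09 ± 0.29 (-0.56 to 0.73, limma adjusted p = 0.858). The response at 72 h minus that at 24 h was -1.01 ± 0.41 (-1.92 to -0.10, limma adjusted p = 0.121), and passed the threshold without Ota 24 h replicate 2 (-1.32, adjusted p = 0.0388).

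ARRDC3 stayed bright throughout and moved less. It read 9.19, 8.72 and 9.46 in Ota cells at 72 h, with 9.80, 9.67 and 9.92 in Ota cells at 24 h, against 9.06, 9.03 and 9.01 in control cells at 72 h and 9.95, 9.69 and 10.19 in control cells at 24 h. Over time it fell by 0.67 ± 0.18 in Ota cells (1.59-fold, limma adjusted p = 0.0174), with the 3 arrays at 72 h below the 3 at 24 h. That call was lost without Ota 72 h replicate 2, the lowest of its group (-0.47, adjusted p = 0.0557), and when the Ota groups were fitted alone (adjusted p = 0.0517). In control cells the difference over time was -0.91, as a description. Ota and control arrays overlapped at both times, with differences of -0.14 ± 0.18 at 24 h (-0.53 to 0.25, limma adjusted p = 0.598) and 0.09 ± 0.18 at 72 h (limma adjusted p = 0.746).

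ARRDC2, an alpha-arrestin with fewer known roles, was dim and nearly level. It read 5.06, 5.21 and 4.96 in Ota cells at 72 h, 5.05, 4.84 and 4.86 in Ota cells at 24 h, 5.51, 5.28 and 5.19 in control cells at 72 h, and 4.95, 4.71 and 5.10 in control cells at 24 h. None of its tested differences was called: 0.16 ± 0.13 over time in Ota cells (limma adjusted p = 0.381), -0.25 ± 0.13 at 72 h (limma adjusted p = 0.176) and under 0.01 in size at 24 h (limma adjusted p = 0.985). In control cells it was 0.41 higher at 72 h, as a description, so the 3 ARRDC genes did not share 1 direction there.

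MLX, the partner that MondoA needs to bind DNA, was lower in Ota cells and rose over time, opposite to TXNIP. Its probe set 217909_s_at read 8.50, 8.79 and 8.56 in Ota cells at 72 h, with 7.62, 7.57 and 7.84 in Ota cells at 24 h, against 8.95, 9.02 and 9.03 in control cells at 72 h and 8.47, 8.42 and 8.45 in control cells at 24 h. Every Ota array lay below every control array of its time, and every 72 h array of a treatment above its 24 h arrays. The brightest, 213708_s_at, averaged 9.20 ± 0.10 in Ota cells at 72 h, 8.44 ± 0.13 in Ota cells at 24 h, 9.48 ± 0.15 in control cells at 72 h and 8.80 ± 0.12 in control cells at 24 h (SD, n = 3 each). The third, 217910_x_at, of a kind whose probes can match other transcripts, averaged 8.29 ± 0.10 in Ota cells at 72 h, 7.53 ± 0.17 in Ota cells at 24 h, 8.62 ± 0.10 in control cells at 72 h and 7.87 ± 0.06 in control cells at 24 h. The 3 correlated at r = 0.923 to 0.989 over the arrays.

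At 24 h, MLX was lower in Ota cells on all 3 probe sets, by -0.77 ± 0.10 (limma adjusted p = 0.000218) on 217909_s_at, -0.35 ± 0.11 (limma adjusted p = 0.0331) on 213708_s_at and -0.33 ± 0.11 (limma adjusted p = 0.0345) on 217910_x_at. The first kept its call in all 21 alternatives run for it (adjusted p of 0.000145 to 0.00465). The other 2 each lost it with a replicate block within each time (adjusted p = 0.052 and 0.0529), and without Ota 24 h replicate 1, Ota 24 h replicate 2, control 24 h replicate 2 or control 24 h replicate 3, with values of -0.36 to -0.25 and adjusted p of 0.0606 to 0.13. At 72 h the differences were -0.38 ± 0.10 (limma adjusted p = 0.0174), -0.29 ± 0.11 (limma adjusted p = 0.0809) and -0.33 ± 0.11 (limma adjusted p = 0.0376) in the same order. The call for 217909_s_at was lost without Ota 72 h replicate 1 (-0.32, adjusted p = 0.075), Ota 72 h replicate 3 (-0.35, adjusted p = 0.0584) or control 72 h replicate 3 (-0.37, adjusted p = 0.0571). That for 217910_x_at was lost without Ota 24 h replicate 1 or any 1 of the 72 h replicates other than Ota 72 h replicate 3 (adjusted p of 0.0527 to 0.118), and with the replicate block within each time (adjusted p = 0.0559).

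Over time in Ota cells MLX rose by 0.94 ± 0.10 on 217909_s_at (1.92-fold, limma adjusted p = 0.000228), 0.75 ± 0.11 on 213708_s_at (1.69-fold, limma adjusted p = 0.000976) and 0.76 ± 0.11 on 217910_x_at (1.69-fold, limma adjusted p = 0.00078). In control cells the differences were 0.56, 0.69 and 0.76, as a description. The response to Ota at 72 h minus that at 24 h was 0.38 ± 0.15 on 217909_s_at and missed the threshold (limma adjusted p = 0.0952). Of the 3 dim MLX probe sets, 210752_s_at reached log2 4 on 2 arrays, both of control cells at 72 h (3.43, 4.05 and 4.37), and the other 2 stayed between 2.06 and 2.16.

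MLXIP (MondoA) sat at a middle level in all groups. Its probe set 202519_at read 7.13, 6.79 and 6.95 in Ota cells at 72 h, with 6.90, 6.46 and 6.61 in Ota cells at 24 h, against 6.45, 6.75 and 6.53 in control cells at 72 h and 6.51, 5.95 and 6.58 in control cells at 24 h. The other, 225157_at, averaged 6.91 ± 0.24 in Ota cells at 72 h, 6.89 ± 0.23 in Ota cells at 24 h, 6.45 ± 0.31 in control cells at 72 h and 6.62 ± 0.30 in control cells at 24 h (SD, n = 3 each). All 4 differences from control cells were positive and none was called: 0.31 ± 0.18 and 0.27 ± 0.20 at 24 h (limma adjusted p = 0.221 and 0.361), and 0.38 ± 0.18 and 0.46 ± 0.20 at 72 h (limma adjusted p = 0.141 and 0.118). With replicate numbers as a block, 225157_at was called at 72 h (limma adjusted p = 0.014). Over time in Ota cells the differences were 0.30 ± 0.18 (limma adjusted p = 0.238) and 0.01 ± 0.20 (limma adjusted p = 0.968).

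**Figure D2:**
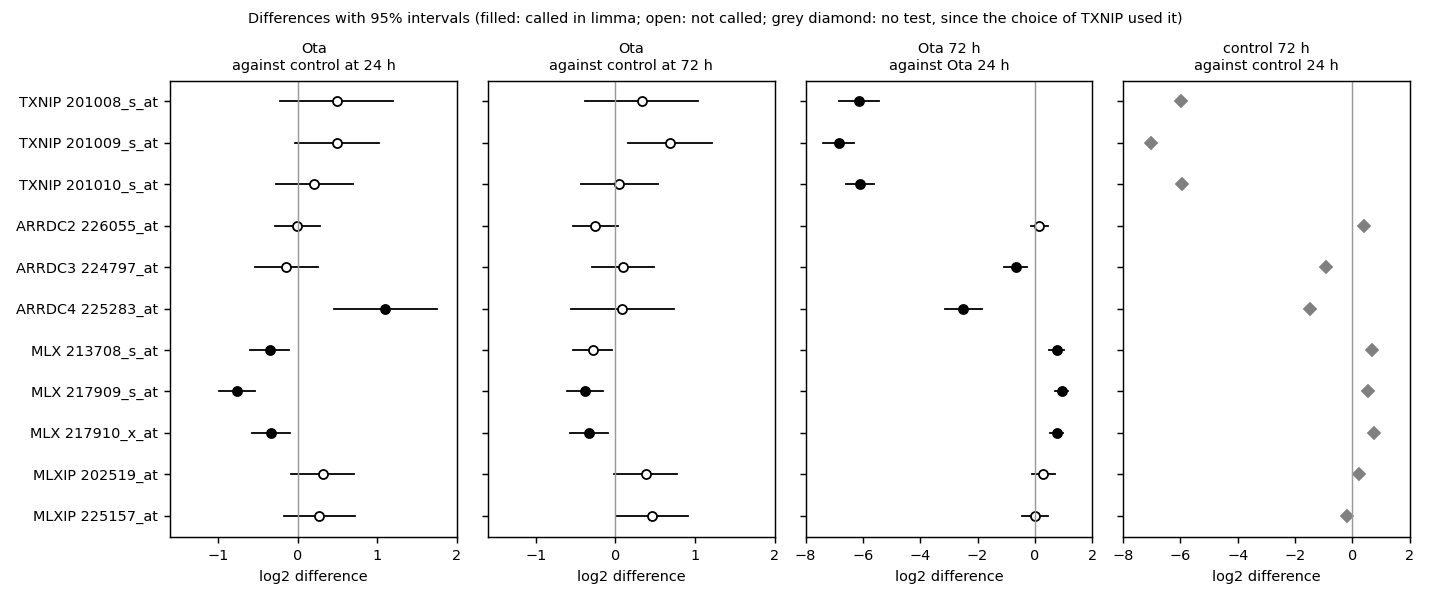
Log2 difference with its 95% interval for each of the 11 probe sets in the comparisons of Ota cells, filled where limma called it at an adjusted p under 0.05, with the untested differences over time in control cells as grey diamonds. TXNIP lies beyond -6 over time in Ota cells and spans 0 against control cells on its brightest probe set; MLX is below 0 against control cells at both times and above 0 over time.

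Counted over the 11 probe sets, 8 were called over time in Ota cells, 3 higher (MLX) and 5 lower (TXNIP, ARRDC3 and ARRDC4), for 4 of the 6 genes, beside 27.6% of all 22477 probe sets tested (17.7% higher and 9.94% lower). The ARRDC4 probe set and TXNIP 201009_s_at passed the filter through the 24 h arrays alone, so they had to differ, and among the other 9 there were 6 called, 3 higher and 3 lower. The arrays of the 2 times lay apart for the same number, 8, and for 47.9% of all probe sets. Against control cells at 24 h, 4 of 11 were called, 1 higher and 3 lower, close to the 31% of all probe sets (12.9% higher and 18.1% lower). That count was 1 when Ota 24 h replicate 1 or control 24 h replicate 2 was left out, and 2 for Ota 24 h replicate 2 or control 24 h replicate 3. It comes from a fit without the pairing of replicate numbers seen at 24 h, and was also 2 with a replicate block within each time. At 72 h, 2 of 11 were called, both lower, below the 28.2% of all (16.4% higher and 11.8% lower). Leaving out control 72 h replicate 3 gave 0, and leaving out Ota 24 h replicate 1 or any other of the 72 h arrays gave 1, which was TXNIP 201009_s_at, higher, without Ota 72 h replicate 1. For the difference between the responses, which was tested for the 8 probe sets of genes other than TXNIP, 0 were called by limma, against 17% of all, and 2 had an unadjusted p under 0.05. Without Ota 24 h replicate 2 (ARRDC4) or Ota 24 h replicate 3 (MLX 217909_s_at) the count was 1. Over time in control cells, the comparison that chose TXNIP, 39.9% of all probe sets were called. Arrays lay apart for 5 of the 11 against control cells at 24 h and 5 at 72 h, where they did for 49.2% of all probe sets, and for 9 over time in control cells, against 50.9% of all. The median over the 11 was 0.01 over time in Ota cells, 0.21 against control cells at 24 h and 0.09 at 72 h, beside 0.05, -0.02 and 0.02 over all probe sets. How the called probe sets divide depends on the scaling: 64% of those called over time in Ota cells were higher, against 71.8% with arrays shifted to a common median and 52% with quantile normalization repeated.

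The genes around TXNIP were read from 10 lists, each gene by its brightest probe set. Over all 10699 genes tested, 29.3% were called over time in Ota cells (20.4% higher, 8.86% lower), 29.8% against control cells at 24 h (8.94% higher, 20.9% lower) 29.4% against control cells at 72 h (15.7% higher, 13.7% lower) and 18.6% for the difference between those responses. The medians over all genes were 0.08, -0.06 and 0.01. The lists were chosen with earlier results of these data known, so their counts are descriptions.

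Of other known targets of MondoA or its relative ChREBP, 12 of 17 could be tested. At 72 h, 7 of these were higher in Ota cells and 0 lower, with a median difference of 0.42. FASN, the fatty acid synthase, averaged 9.47 in Ota cells at 72 h against 7.89 in control cells at 72 h, a difference of 1.57 ± 0.18 (limma adjusted p = 0.000119), and 0.76 as the mean of its probe sets. PNPLA3, a lipid droplet enzyme, differed by 1.70 ± 0.21 (limma adjusted p = 0.000188) and BHLHE40, a clock-related repressor, by 1.24 ± 0.19 (limma adjusted p = 0.000769). At 24 h, 0 were higher and 3 lower, led by the fatty acid elongase ELOVL6 (-1.58 ± 0.22, limma adjusted p = 0.000325, and -0.49 as the mean of its probe sets), with a list median under 0.01 in size. With the replicate block 5 were called at 24 h, 1 higher and 4 lower. Over time in Ota cells 4 rose and 0 fell, including PFKFB3, which makes the activator of glycolysis (1.14 ± 0.21, limma adjusted p = 0.00318). TXNIP and ARRDC4, members of the same target group, fell over that interval. In control cells, 1 of the 12 tested genes of the list was called higher over time and 6 lower, beside 39.9% of all probe sets called in either direction. The median difference was -0.35, and under 0.01 in size over all genes. Both are a description, since this comparison chose TXNIP. FASN averaged 9.68 in control cells at 24 h and 7.89 at 72 h, against 9.25 and 9.47 in Ota cells. For FASN the higher value in Ota cells at 72 h thus stands beside a fall in control cells, and the named targets differed in this. BHLHE40 averaged 9.26 in control cells at 24 h and 8.64 at 72 h, against 9.72 and 9.88 in Ota cells. PNPLA3 had 7.38 and 6.53 in control cells, against 7.33 and 8.23 in Ota cells. PFKFB3 was level in control cells (9.06 and 9.07) and went from 9.11 to 10.25 in Ota cells.

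Glucose transporters and the enzymes around glucose phosphorylation had 13 of 20 genes tested. At 24 h, 1 was higher and 2 lower in Ota cells, led by the lysosomal transporter SLC2A6 (-1.92 ± 0.32, limma adjusted p = 0.00101). Without control 24 h replicate 3, 5 were called there (1 higher, 4 lower), and with the replicate block 6 (2 higher, 4 lower). At 72 h, 3 were higher and 1 lower, with 2 higher and 0 lower when any 1 of Ota 72 h replicates 1 and 3 and control 72 h replicates 1 and 3 was left out. SLC2A2 led there at 1.74 ± 0.40 (limma adjusted p = 0.00781), though its values lay near the floor and the difference was 0.36 with values raised to log2 4. The hexokinase HK1 averaged 10.04 in Ota cells at 72 h and 9.56 in control cells at 72 h (0.48 ± 0.12, limma adjusted p = 0.0101). Over time in Ota cells 2 rose and 4 fell, among them HKDC1, a hexokinase relative (1.17 ± 0.21, limma adjusted p = 0.00302), and GPI, the next enzyme of glycolysis (-0.50 ± 0.10, limma adjusted p = 0.00503). SLC2A1, which encodes GLUT1 and is named here after its values were seen, had differences of -0.36 ± 0.16 over time in Ota cells (limma adjusted p = 0.123), -0.18 ± 0.16 at 24 h (limma adjusted p = 0.447) and -0.17 ± 0.16 at 72 h (limma adjusted p = 0.481).

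Of the thioredoxin system and peroxiredoxins, 10 of 12 were tested. Thioredoxin itself (TXN), the protein TXNIP binds, averaged 13.40 in Ota cells at 72 h, 13.60 in Ota cells at 24 h, 12.97 in control cells at 72 h and 13.37 in control cells at 24 h. At 72 h it was higher in Ota cells by 0.42 ± 0.08 (limma adjusted p = 0.00261), and 4 genes of the list were higher and 0 lower. The others were the peroxiredoxins PRDX3 (0.37 ± 0.09, limma adjusted p = 0.0106, but 0.16 and adjusted p = 0.0574 as the mean of its probe sets), PRDX1 and PRDX2, and without Ota 72 h replicate 2 the count was 2. At 24 h only TXN was called (0.23 ± 0.08, limma adjusted p = 0.0457), and the count was 0 without any 1 array other than Ota 24 h replicate 3 or control 24 h replicate 3. Over time in Ota cells 0 rose and 3 fell, led by the mitochondrial thioredoxin reductase TXNRD2 (-0.76 ± 0.12, limma adjusted p = 0.00126, and -0.39 as the mean of its probe sets). TXN had -0.21 ± 0.08 there (limma adjusted p = 0.0737).

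Of the other arrestins, ARRDC1 and ARRB1 were the 2 of 6 tested. ARRDC1, an alpha-arrestin of the plasma membrane, averaged 6.72 in Ota cells at 72 h, 5.44 in Ota cells at 24 h, 7.35 in control cells at 72 h and 7.65 in control cells at 24 h. It was lower in Ota cells at 24 h by -2.21 ± 0.13 (limma adjusted p = 8.57e-07) and at 72 h by -0.63 ± 0.13 (limma adjusted p = 0.00467), and rose over time in Ota cells by 1.28 ± 0.13 (limma adjusted p = 0.000173). As the mean of its probe sets these were -1.10, -0.33 and 0.63. ARRB1, the beta-arrestin 1 gene, was lower in Ota cells at both times (-1.25 ± 0.22 and -0.73 ± 0.22, limma adjusted p = 0.00124 and 0.0272), but its probe sets disagree: their mean differed by -0.11 at 24 h and by 0.49, the other direction, at 72 h. Its call at 72 h was lost without any 1 of the 6 arrays of that time (adjusted p of 0.0542 to 0.0783). Of the NEDD4-family ligases that alpha-arrestins recruit, 7 of 9 were tested, with 3 higher and 0 lower in Ota cells at 24 h, 2 higher and 0 lower at 72 h, and 1 higher and 1 lower over time. NEDD4L led at 24 h with 2.29 ± 0.19 (limma adjusted p = 8.52e-06), or 0.53 as the mean of its probe sets. At 72 h NEDD4L had 0.66 ± 0.19 (limma adjusted p = 0.0254), but 0.16 and no call as the mean of its probe sets (limma adjusted p = 0.177). ITCH, also counted as higher there (1.09 ± 0.24, limma adjusted p = 0.00573), turned to -0.24 as the mean of its probe sets and was then called lower (limma adjusted p = 0.0374). WWP1 was higher at 72 h by 0.45 ± 0.11 (limma adjusted p = 0.0104). The count at 72 h was 1 without Ota 72 h replicate 1 or 3 or control 72 h replicate 1 or 3.

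In the MYC-MAX-MLX network, from which MLX draws its partners, 7 of 11 genes were tested. At 24 h, 1 was higher and 0 lower, the repressor MXD1 (1.44 ± 0.29, limma adjusted p = 0.00315), whose difference was 0.13 and not called as the mean of its probe sets, and without control 24 h replicate 2 the count was 2, 1 of them lower. At 72 h, 0 were higher and 2 lower, led by MAX, the common partner of the MYC branch, at 10.02 in Ota cells and 10.99 in control cells (-0.97 ± 0.11, limma adjusted p = 0.000139, and -0.58 as the mean of its probe sets). The count there was 1 when any 1 of the 72 h arrays other than control 72 h replicate 3 was left out. Over time in Ota cells 2 rose and 0 fell, led by MYC (0.79 ± 0.17, limma adjusted p = 0.00626), and the count was 1 without Ota 72 h replicate 1 or 2 or Ota 24 h replicate 2.

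Of the remaining 4 lists, 3 had calls in both directions in at least 1 comparison, and the factors of the TXNIP promoter had higher calls alone in this fit. Of the subunits of AMP-activated protein kinase, which marks TXNIP for degradation, and the kinases that act on it, 8 of 9 genes were tested. There were 3 higher and 1 lower in Ota cells at 24 h, 2 and 2 at 72 h, and 3 and 0 over time, the last count being 1 without Ota 72 h replicate 1 or 2. The catalytic subunit PRKAA2 was higher at both times, by 0.61 ± 0.11 (limma adjusted p = 0.00181) and 1.01 ± 0.11 (limma adjusted p = 0.000118, and 0.44 as the mean of its probe sets). The subunit PRKAG1 was lower at both times, by -0.44 ± 0.11 and -0.86 ± 0.11 (limma adjusted p = 0.0105 and 0.000249). PRKAB2 was lower at 72 h by -0.80 ± 0.14 (limma adjusted p = 0.00182). The kinase STK11 was higher at 24 h (0.91 ± 0.19, limma adjusted p = 0.00382), but 0.21 and not called as the mean of its probe sets (limma adjusted p = 0.125). Of glucocorticoid-induced genes, read because the medium holds hydrocortisone, 9 of 12 were tested, with 0 higher and 3 lower at 24 h, 2 and 2 at 72 h, and 3 and 1 over time, where TSC22D3 rose by 1.29 ± 0.20 (limma adjusted p = 0.00131, and 0.69 as the mean of its probe sets). Of the NLRP3 inflammasome, to which TXNIP is known to bind, 5 of 7 were tested, with 1 higher and 1 lower at 24 h, 1 and 0 at 72 h, and 2 and 0 over time, the last being 0 or 1 when any 1 of the 6 Ota arrays was left out. Its adaptor PYCARD was lower at 24 h by -1.11 ± 0.14 (limma adjusted p = 0.000167). Of other factors known to act on the TXNIP promoter, 6 of 8 were tested, with 1 and 0, 1 and 0, and 2 and 0 in the same order. The called gene at 72 h was NFYB, a subunit of the factor that binds CCAAT, the motif shown in the TXNIP and ARRDC4 windows (0.72 ± 0.13, limma adjusted p = 0.0019, and 0.44 as the mean of its probe sets). It was also the called gene at 24 h (0.40 ± 0.13, limma adjusted p = 0.035), where the call was lost as the mean of its probe sets (0.19, adjusted p = 0.155), with the replicate block within each time (adjusted p = 0.0595), with no filter (adjusted p = 0.0767), with the 2 groups fitted alone (adjusted p = 0.0825), and without Ota 24 h replicate 2 or 3 or control 24 h replicate 2 or 3 (adjusted p of 0.062 to 0.115). The count over time was 1, a lower call, with gene means, and 1 without control 72 h replicate 3 or any 1 of the Ota arrays other than Ota 72 h replicate 3.

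**Figure D3:**
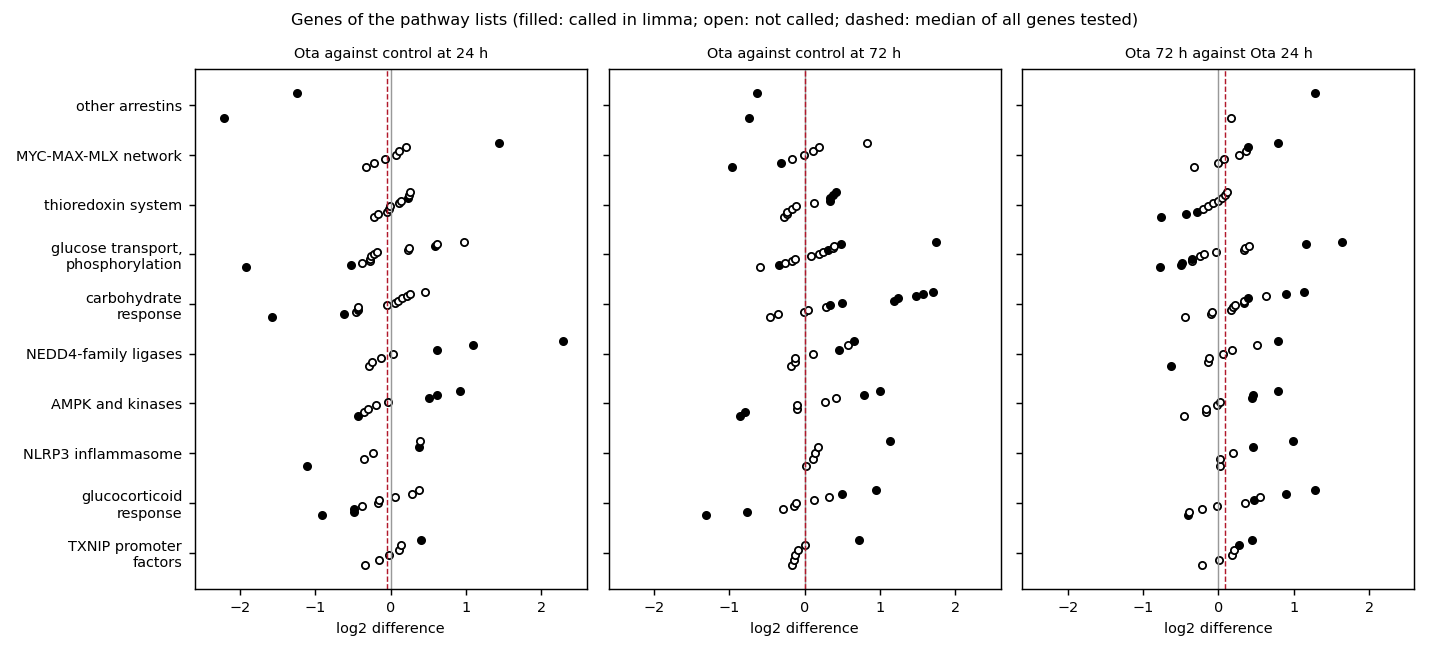
Log2 difference of each tested gene of the 10 lists, in the comparisons of Ota cells; points are genes by their brightest probe set, filled where limma called them at an adjusted p under 0.05. Of the carbohydrate-response targets 7 of 12 are called higher in Ota cells at 72 h, against 15.7% of all genes. The dashed line is the median of all genes tested.

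Genes whose pattern over the 12 arrays was most like that of TXNIP's brightest probe set were ranked by Pearson's r among 10693 other genes, as a description of arrays that share their groups. The 10 highest had r of 0.968 to 0.981: GSTCD, ANXA2P2, S100A2, BABAM1, COX7B, S100A11, GAL, EMP1, GET3 and ANAPC15. Their Spearman rho was 0.573 to 0.839, and 0 of the 10 were among the 10 highest by that measure, so that the order within the list depends on the measure. All were lower at 72 h, but by less than TXNIP: S100A2, a calcium-binding protein of epithelia, differed by -2.06 in Ota cells and -2.29 in control cells, and EMP1, an epithelial membrane protein, by -1.55 in each. The smallest difference was that of GET3, a factor of tail-anchored protein insertion, at -0.47 in Ota cells and -0.38 in control cells. In all, 219 genes had r above 0.9. Among the other members r was 0.90 for ARRDC3, 0.90 for ARRDC4, 0.20 for MLXIP, -0.66 for ARRDC2 and -0.90 for MLX. The ARRDC4 probe set passed the filter through the 24 h arrays alone, so a high r with TXNIP was in part built in. All these r include the control arrays that chose TXNIP.

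**Figure D4:**
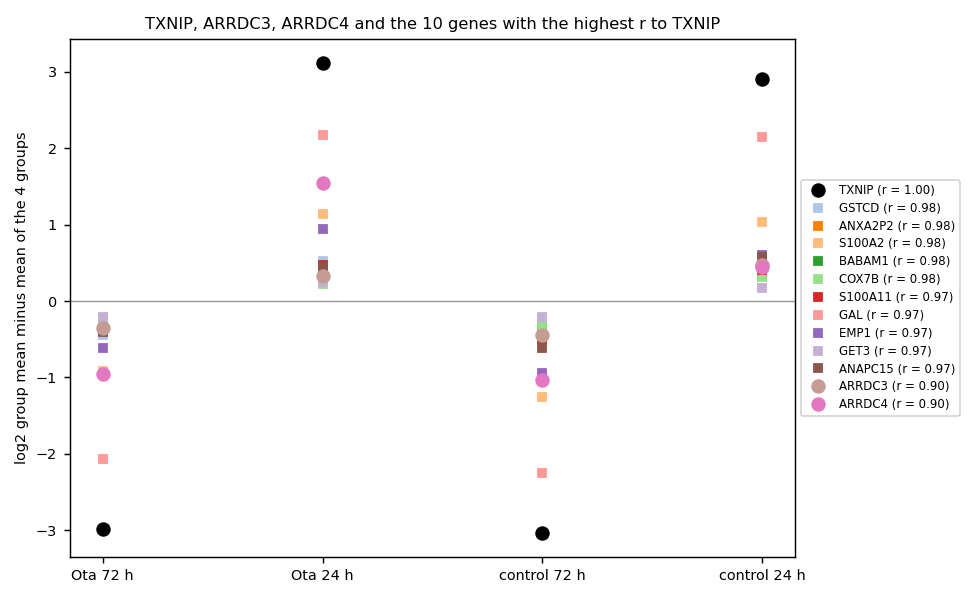
Mean log2 value in each group, less the mean of the 4 groups, for TXNIP, the 10 genes with the most similar pattern, ARRDC3 and ARRDC4, each by its brightest probe set. TXNIP spans about 6 log2 units between the times, GAL about 4, and the other 9 genes between 0.38 and 2.29.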

How the data were processed

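Expression in 12 samples of HK-2 cells was read from a deposited table of log2 values, which the authors made with GCRMA, per the submitters' processing notes; its version and settings are not given in the sources used here. GCRMA subtracts a sequence-based background, quantile-normalizes arrays and summarises probes into probe sets, so low values sit on a floor, where folds are uncertain, and a shift of all RNA is hard to see. The upper quartile over probe sets was 6.89 to 7.11 between arrays. Of 54675 probe sets, 62 controls were left out; 41091 had 1 gene symbol, 1801 several and 11721 none in the platform annotation, and symbols were updated through RefSeq (GRCh38.p14). Arrays have no read depth, and their number limits the precision.

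The 22477 probe sets above log2 4 on at least 3 arrays were fitted with 1 mean per group over the 12 arrays in limma 3.58.1 (lmFit, eBayes; R 4.3.3, data.table version 1.17.8; residual degrees of freedom 8, prior 2.93), with Benjamini-Hochberg adjustment over all of them and calls at an adjusted p under 0.05. Each adjusted p in the text is from this fit unless a setting is named. A gene was read from its brightest probe set. On simulated data for Ota against control cells at 24 h, the fit called 13 of 67 probe sets changed by log2 0.5. It called 46 of 67 changed by 1 and 62 of 66 changed by 2. Just these few of the 22477 probe sets were changed in the simulation, while 31% were called at 24 h in the data. The adjustment is stricter where few probe sets change, so these shares do not carry over to the data. A difference of about 0.5 could still go uncalled, as for TXNIP 201009_s_at at 24 h (0.49). Figures were drawn with matplotlib 3.10.9.

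The members, the 10 lists of 111 genes and the tests were chosen with earlier results of these data known. The text names all members, genes among the 3 smallest adjusted p of each list and comparison, the 10 genes most like TXNIP by r, and the first probe set outside the choice of TXNIP, with SCN3A, SLC2A1 and PRDX2 added after their values were seen where outside this rule. Alternatives were other scalings, filters, summaries and groups in the fit, an intensity trend, blocks and leaving out each array.

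Whether replicate numbers pair the samples was checked by correlating deviations from the group means. Same-numbered samples correlated at r = 0.347 to 0.480 between Ota and control cells at 24 h, all 3 pairs over 0.1, and were taken as paired there. The numbers come from the labels. The main fit did not use this pairing, so its p-values at 24 h are those of unpaired groups. Fits with a replicate block, over all groups or within each time, were run as alternatives. At 72 h the range was -0.04 to 0.18 and over time in Ota cells -0.08 to 0.14, each with 1 of 3 pairs over 0.1. Over time in control cells it was 0.12 to 0.29, with all 3 pairs over 0.1.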

Additional observations from a re-analysis of the deposited data

Results flagged for a closer look

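The genes looked at were the members other than TXNIP and the called list genes among the 3 smallest adjusted p of each list and comparison. For 15 of these list genes the response to Ota at 72 h differed from that at 24 h (limma, adjusted p under 0.05 for the difference itself). It did so for none of the members tested. Values are log2 differences between Ota and control cells, with the difference of responses as 72 h minus 24 h. Genes lower in Ota cells mainly at 24 h were ARRDC1 (-0.63 at 72 h and -2.21 at 24 h, difference 1.58, limma adjusted p = 0.000645), SLC2A6 (0.40 and -1.92, difference 2.32, limma adjusted p = 0.00785), ELOVL6 (0.28 and -1.58, difference 1.86, limma adjusted p = 0.00388) and PYCARD (0.14 and -1.11, difference 1.25, limma adjusted p = 0.00312). Genes with the higher value at 72 h were PNPLA3 (1.70 at 72 h and -0.05 at 24 h, difference 1.75, limma adjusted p = 0.00351), FASN (1.57 at 72 h and -0.43 at 24 h, difference 2.00, limma adjusted p = 0.000804), PFKFB3 (1.18 and 0.05, difference 1.13, limma adjusted p = 0.0265), IL1B (1.13 and -0.35, difference 1.49, limma adjusted p = 0.0268) and DUSP1 (0.50 and -0.49, difference 0.99, limma adjusted p = 0.000773). The same held for NFKBIA (0.94 at 72 h and -0.15 at 24 h, difference 1.10, limma adjusted p = 0.012), HK1 (0.48 and -0.26, difference 0.75, limma adjusted p = 0.0126) and GPI (0.31 and -0.27, difference 0.59, limma adjusted p = 0.019). SCD was lower in Ota cells at 24 h and level at 72 h (-0.01 at 72 h and -0.44 at 24 h, difference 0.43, limma adjusted p = 0.0424). NEDD4L had 0.66 at 72 h and 2.29 at 24 h (difference -1.63, limma adjusted p = 0.00357), and MAX -0.97 at 72 h and -0.08 at 24 h (difference -0.89, limma adjusted p = 0.0047). Several of these responses were smaller as the mean of the probe sets of a gene. By that measure NEDD4L had 0.16 at 72 h and 0.53 at 24 h, and DUSP1 0.26 and -0.17. These genes were kept because they were called in a comparison that shares arrays with this difference, so a raised share was built in. Over the whole lists, 6 of 12 carbohydrate-response genes tested passed, 3 of 13 for glucose uptake, 2 of 9 for glucocorticoid response and 2 of 5 for the inflammasome. It was 1 of 8 for AMP-activated protein kinase, 1 of 7 each for NEDD4-family ligases and the MYC-MAX-MLX network, and 1 of 2 for arrestins. For the thioredoxin system it was 0 of 10 and for promoter factors 0 of 6. The lists were chosen with earlier results known, and 18.6% of all genes tested passed the same test.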

How the results depend on the processing

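TXNIP fell over time in Ota cells in all alternatives run, with values of -7.17 to -5.84 over its 3 probe sets. The number of member probe sets called over time in Ota cells was 8, and 4 with 1 probe set per gene or with gene means (all probe sets of a gene averaged), where 6 values were tested. Against control cells at 24 h it was 4, and 2 with quantile normalization repeated, with no filter, with the 2 groups fitted alone, with 1 probe set per gene, with gene means and with a replicate block within each time, which was added after the data were seen. At 72 h it was 2, both lower, and 0 with 1 probe set per gene and 1 with gene means. It was 3 at 72 h, with TXNIP 201009_s_at higher, under the common median shift, repeated quantile normalization, the stricter filter and the intensity trend. For the difference between responses it was 0, and 1 with the replicate block within each time (ARRDC4, limma adjusted p = 0.0154). Leaving out 1 replicate at a time gave 7 to 8 over time in Ota cells, 1 to 5 at 24 h, 0 to 2 at 72 h and 0 to 1 for the difference between responses. The fall of TXNIP in control cells, -5.95, was -6.32 with gene means and -6.05 to -5.85 without 1 replicate. As the mean of its probe sets ITCH turned at 24 h, to -0.24 (limma adjusted p = 0.0374) against 1.09, and ARRB1 at 72 h, to 0.49 (limma adjusted p = 0.0181) against -0.73; the cause was not tested.

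With a replicate block (same-numbered samples of all 4 groups paired), 8 member probe sets were called over time in Ota cells, 4 at 24 h, 3 at 72 h (MLXIP 225157_at added) and 0 for the difference, and ARRDC4 at 24 h had an adjusted p of 0.00995 (limma). ARRDC4 at 24 h lost its call with no filter (adjusted p = 0.0658) and with the 2 groups fitted alone (adjusted p = 0.0718), and ARRDC3 over time in Ota cells with no filter (adjusted p = 0.0589). Of the probe sets called for a difference between responses, 66% were higher, against 54.9% with quantile normalization repeated. Levels near the floor, TXNIP and ARRDC4 at 72 h, limit the sizes of their falls.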
